A study of Homo sapiens with 12 samples.

Results

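The genes described here are 42 genes of the DNA damage checkpoint, homologous recombination and the Fanconi anaemia pathway, with a pair of mismatch repair genes, out of 60240 genes in the deposited table. They were taken from a list of symbols, with no threshold on a measured value. All 42 were in the table and all passed the filter on low values, a normalised count of at least 10 in at least 2 libraries, along with 16152 genes in all.

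RNA was sequenced from WT HL-60 cells, an established human leukaemia line of promyelocytic type that is known to lack p53. The decitabine groups received decitabine at 100 nM at 0, 24 and 48 h, and RNA was taken at 6, 72 or 120 h. The DMSO groups received the vehicle and were sampled at the same times. By 6 h the decitabine cells had therefore had 1 dose, and at 120 h they were 72 h past the last. All samples came from 1 line seeded at 100000 cells per mL, with 2 replicates to a group by the labels. Values were analysed for 11 libraries, since the table has 12 library names over 11 columns of values and DMSO 72 h replicate 2 was not analysed here. Nothing in the labels says that replicates came from separate cultures, so each p-value measures only the spread between these replicates, which may be technical.

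Decitabine is a deoxycytidine analogue that is built into DNA, where DNA methyltransferases become bound to it, and the resulting protein adducts can block replication forks. ATR with its partners ATRIP and TOPBP1 senses single-stranded DNA at stalled forks and activates CHEK1, while ATM senses double-strand breaks and activates CHEK2. In homologous recombination broken ends are cut back, and BRCA1, PALB2, BRCA2 and paralogs such as RAD51C help to build the protein filament that searches for a matching strand. The Fanconi core complex marks FANCD2 and FANCI with ubiquitin at crosslinked or stalled forks, and nucleases and recombination proteins act after them.

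Estimated depth was 14427335 to 32908451 counts per library. It is approximate, since the most frequent low value of each library was taken as 1 count and whole reads could not be recovered. MPO, the enzyme of promyelocyte granules, stood at 86061 to 178350 normalised counts in every library, and the haemoglobin genes HBB and HBA1 were listed at 0. The 9 granulocyte maturation genes, all detected, summed to 31614 to 165350 normalised counts in decitabine libraries and 20915 to 31556 in DMSO libraries, and their part in the results below was not tested. PRG2 made up most of that sum, with 108091 and 118412 in decitabine libraries at 120 h against 13438 and 14471 in DMSO libraries. LTF and MMP8 of the same list ran the other way at 120 h. LTF had 9.73 and 13.1 with decitabine against 29.7 and 34.0 with DMSO, and MMP8 had 2.97 and 2.36 with decitabine against 30.0 and 12.8 with DMSO. The decitabine 72 h libraries stood apart from one another. Over the repair genes the median absolute log2 difference between those libraries was 0.57, against 0.13 to 0.18 in the other pairs of replicates, so results are also given with the 72 h libraries left out. Since these are bulk libraries, fewer cells that express a gene and less of its RNA per cell cannot be told apart.

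At 120 h most of the repair genes stood below their DMSO level, and ATR was the 1 gene called lower. Of the 42, 30 (71.4%) had negative log2 fold changes of decitabine over DMSO, against 45.8% of all genes tested. Their median log2 fold change was -0.22, against 0.07 for all genes. That gap of -0.29 shrank to -0.14 with quantile normalisation, and it was -0.29 with median-ratio scaling. Per kilobase of exon, RBBP8 had the highest level at 120 h, 618 normalised counts with decitabine and 636 with DMSO, and RAD51B the lowest, 6.56 with decitabine and 4.40 with DMSO. The range of log2 fold changes was -0.95 for FANCM to 0.58 for RAD51B, so that no repair gene differed by as much as 2-fold. A gene was called at a Benjamini-Hochberg adjusted p under 0.05 over all genes in limma. By that rule 1 of 42 (2.38%) was called lower, against 6.00% of all genes, and 0 of 42 were called higher, against 9.91% of all genes. Of the 42, 9 (21.4%) had an unadjusted p under 0.05 in limma, all of them lower, against 30.2% of all genes in either direction. The other settings tried called 0 or 1 higher.

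The number called depended on the 72 h libraries, which shared in the estimate of spread. With those 3 libraries left out of the fit, which changed no fold change at 120 h, 12 of 42 (28.6%) were called lower, against 15.3% of all genes. These were ATR, BLM, CHEK1, FANCM, MSH6, PALB2, PMS2, RAD50, RAD51C, RAD52, WRN and XRCC2. The count was also 12 with decitabine 72 h replicate 1 alone left out, and with replicate 2 alone left out, against 15% of all genes in each fit. In the fit without the 72 h libraries, ATM was the 1 gene called higher (2.38%), against 16.2% of all genes. By the values alone, both decitabine libraries lay below both DMSO libraries at 120 h for 20 of 42 (47.6%), against 30.6% of all genes. Both decitabine libraries lay above both DMSO libraries for 7 (16.7%), against 36.1% of all genes.

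**Figure D1:**
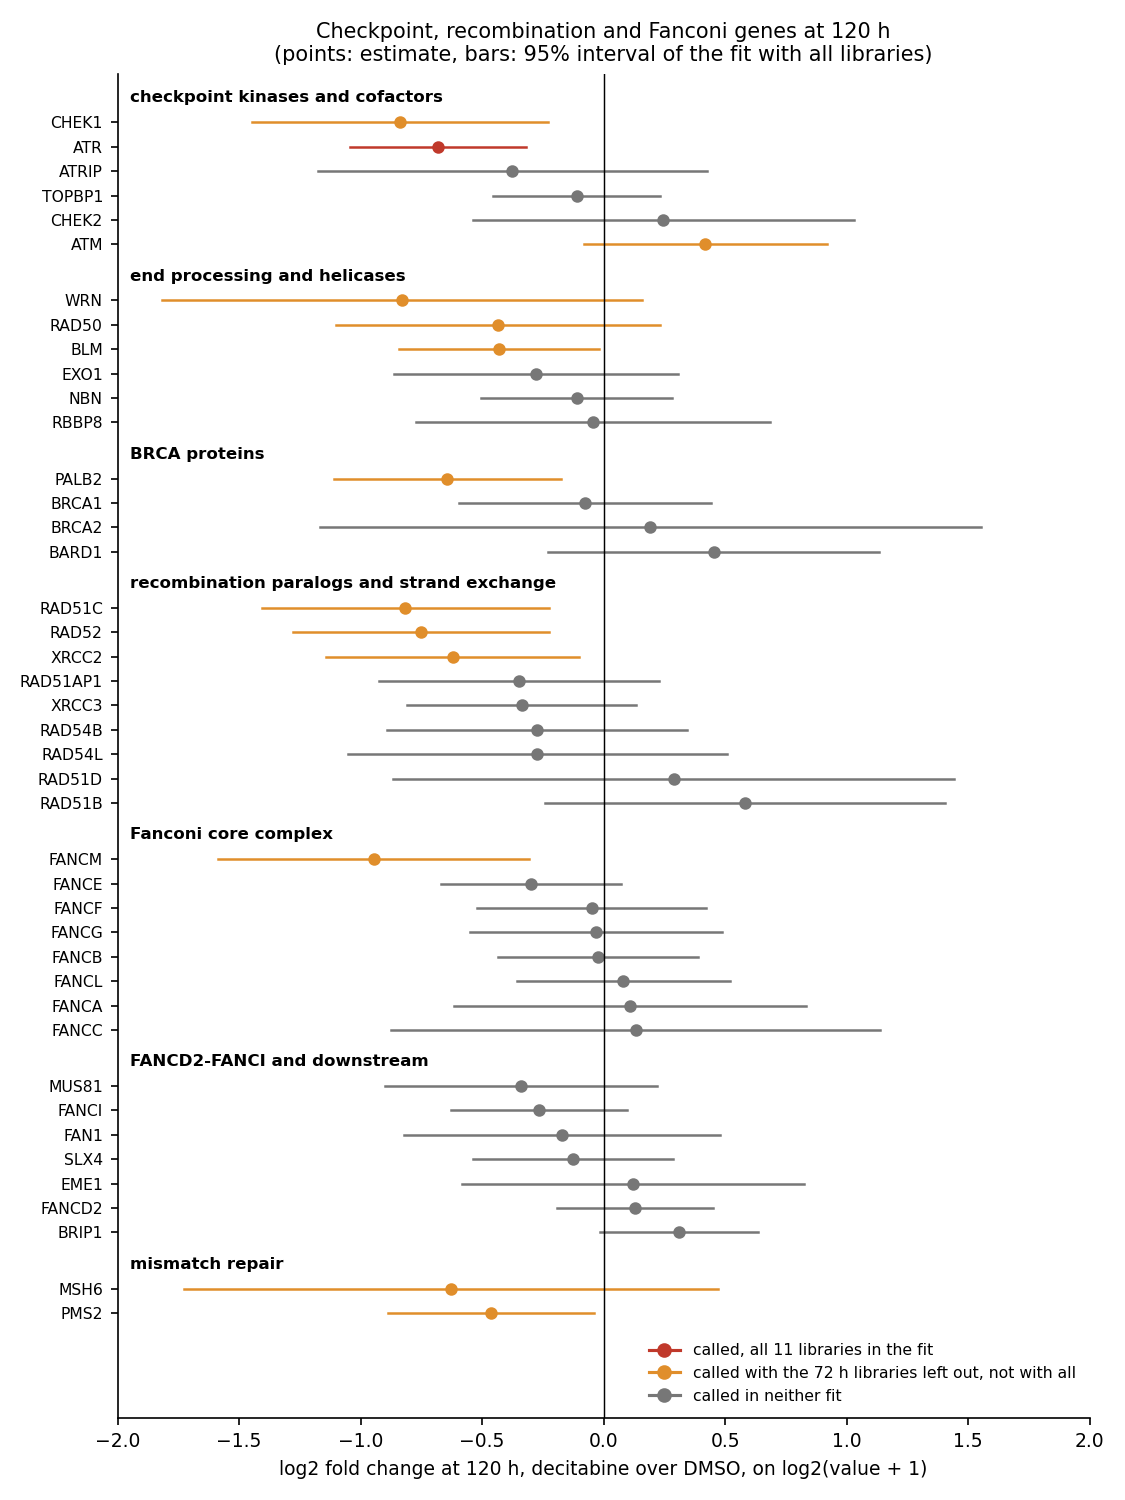
Log2 fold change at 120 h of decitabine over DMSO for each repair gene, by role (points, with 95% intervals of the fit to all 11 libraries). ATR is coloured as called with all libraries, the 11 further genes called lower and ATM as called with the 72 h libraries left out but not with all. The 12 genes called lower lie between -0.95 and -0.43.

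Among the checkpoint genes, ATR and CHEK1 stood lower at 120 h and ATM stood higher. ATR, the kinase that responds to stalled forks, had 1225 and 1173 normalised counts in the decitabine libraries at 120 h, against 1952 and 1894 in the DMSO libraries. The groups did not overlap, and each pair agreed closely, with mean normalised counts of 1199 ± 36.3 with decitabine and 1923 ± 41.5 with DMSO (SD, n = 2 each). Its log2 fold change was -0.68 (95% interval -1.04 to -0.32, limma adjusted p = 0.0221). The call was lost when any 1 of the 120 h libraries was left out, with adjusted p as high as 0.144. At 72 h ATR had 1371 and 1622 with decitabine against 1899 in the 1 DMSO library, and at 6 h it had 2248 and 2077 with decitabine against 2665 and 2246 with DMSO. Decitabine libraries were below the DMSO library at 72 h but overlapped the DMSO libraries at 6 h, and neither difference was called (log2 fold change -0.35, limma adjusted p = 0.384 at 72 h, and -0.18, limma adjusted p = 1 at 6 h). ATR also had less signal in DMSO cells at 120 h than in DMSO cells at 6 h, with a log2 difference of -0.35 that was not called (limma adjusted p = 0.937).

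ATR lies on chromosome 3 from 142449235 to 142578826 on the minus strand (GRCh38, GENCODE 29). The ATR promoter is shown for how many cytosines followed by guanine (CpG) it holds, and a link of these to the level of ATR was not tested. The RefSeq window of GRCh38.p14, chr3:142578684-142578983, runs from 250 bases before the start of transcription to 50 after it. It has 34 CpG, which are in capitals.
ATR: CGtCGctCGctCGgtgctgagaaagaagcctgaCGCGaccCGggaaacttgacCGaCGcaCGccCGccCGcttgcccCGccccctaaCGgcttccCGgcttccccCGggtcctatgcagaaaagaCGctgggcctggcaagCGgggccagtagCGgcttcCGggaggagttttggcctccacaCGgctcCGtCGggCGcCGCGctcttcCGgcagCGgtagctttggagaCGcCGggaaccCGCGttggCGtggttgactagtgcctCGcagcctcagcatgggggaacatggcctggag
The median over the repair genes with a promoter in RefSeq was 27 CpG, with a range of 2 to 44, against 14 over all 27305 promoters of that length. It was 27 in the repair genes called lower at 120 h without the 72 h libraries and 28 in the others. No methylation was measured in these libraries.

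CHEK1, the kinase that ATR activates, had 996 and 1346 normalised counts with decitabine at 120 h, against 1891 and 2268 with DMSO. The groups did not overlap, but the interval was wide (log2 fold change -0.84, 95% interval -1.45 to -0.23, limma adjusted p = 0.0688). With the 72 h libraries left out CHEK1 was called lower (limma adjusted p = 0.00772). At 6 h CHEK1 had 1994 and 1988 with decitabine against 1693 and 2020 with DMSO, and these groups overlapped. At 72 h CHEK1 had 1871 and 3185 with decitabine, and both decitabine values lay above the 1826 of the DMSO library. ATM, the kinase of the double-strand break response, ran the other way, with 5147 and 5214 with decitabine against 3387 and 4433 with DMSO at 120 h. All values with decitabine were above those with DMSO (log2 fold change 0.42, 95% interval -0.08 to 0.92, limma adjusted p = 0.242), and ATM was called higher with the 72 h libraries left out (limma adjusted p = 0.0424). At 6 h ATM had 3231 and 3551 with decitabine against 3668 and 3620 with DMSO, with the decitabine libraries below the DMSO ones. At 72 h ATM had 4350 and 6542 with decitabine, and both decitabine values lay above the 3449 of the DMSO library. CHEK2, the kinase that ATM activates, had 469 and 407 with decitabine against 366 and 371 with DMSO. Its interval of -0.54 to 1.03 on the log2 scale leaves room for a change in either direction (log2 fold change 0.25, limma adjusted p = 0.686). At 6 h CHEK2 had 423 and 389 with decitabine against 486 and 576 with DMSO, with the decitabine libraries below the DMSO ones. At 72 h CHEK2 had 482 and 1136 with decitabine, and the decitabine values lay on either side of the 499 of the DMSO library. ATRIP, which binds ATR, and TOPBP1, which activates it, had log2 fold changes of -0.38 and -0.11. CHEK1 overlaps STT3A on the same strand, ATRIP overlaps TREX1 and CHEK2 has 5 pseudogenes, so their counts may share reads with other genes.

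**Figure D2:**
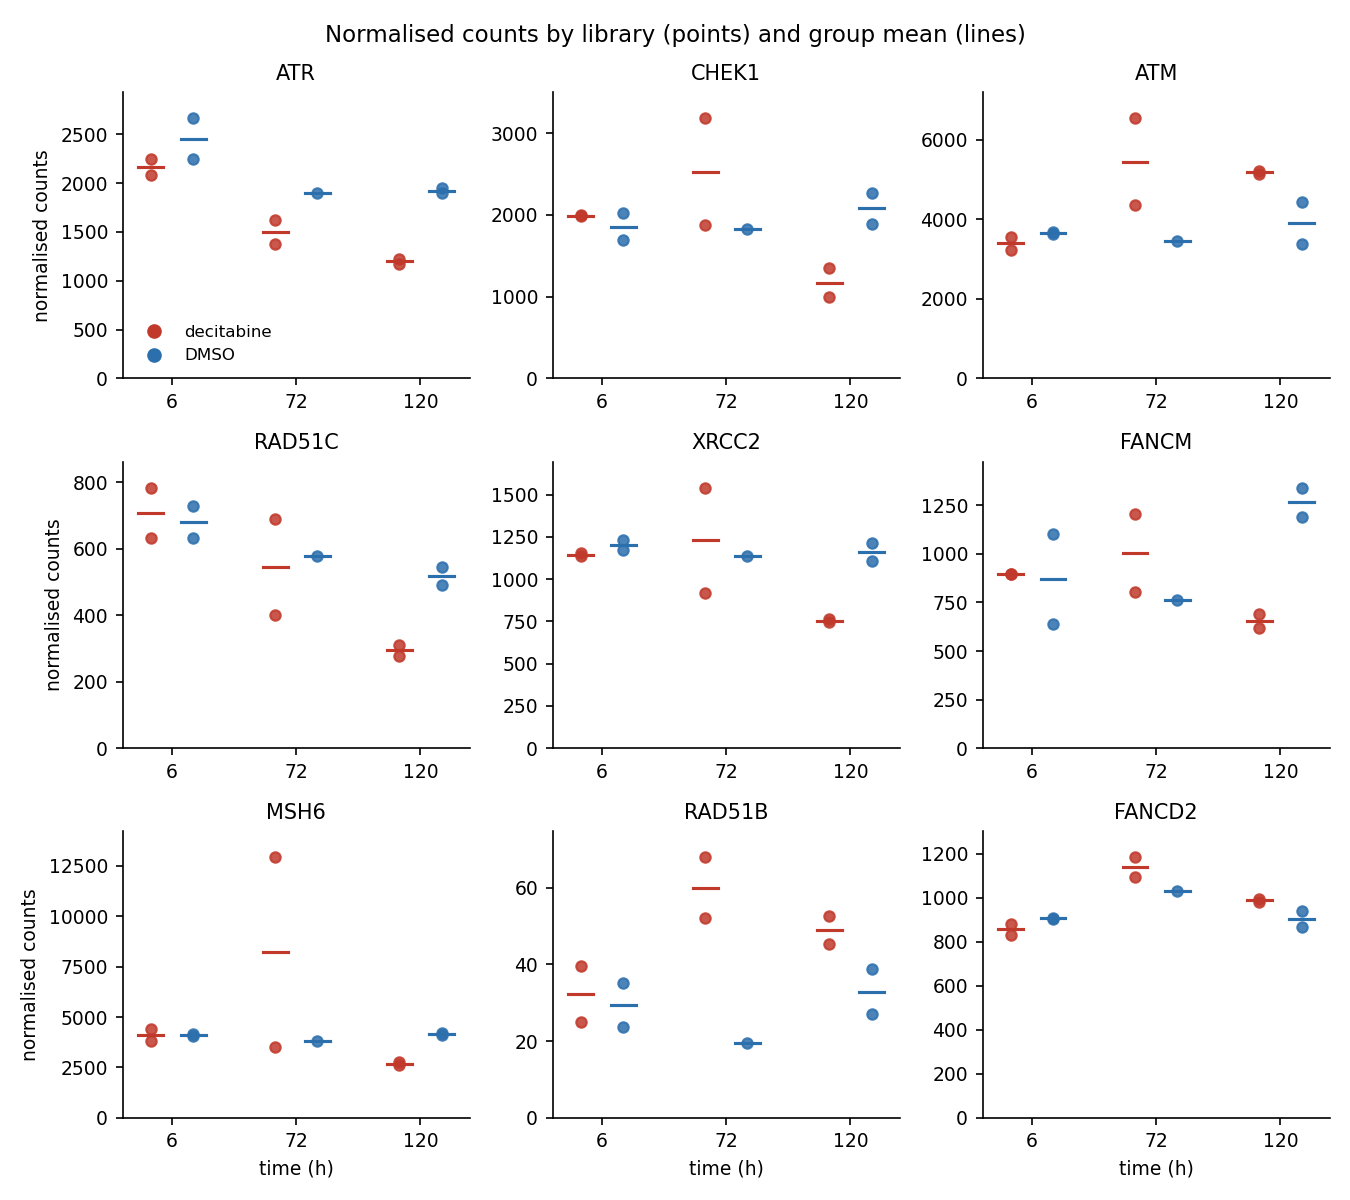
Normalised counts of 9 repair genes in each library (points) with group means (lines) at 6, 72 and 120 h, decitabine left of DMSO; DMSO at 72 h has 1 library. ATR, CHEK1, RAD51C, XRCC2, FANCM and MSH6 have both decitabine libraries below both DMSO libraries at 120 h, ATM, RAD51B and FANCD2 both above, and MSH6 reaches 12922 in decitabine 72 h replicate 2.

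All 6 genes of end processing and unwinding had negative log2 fold changes at 120 h, with a median of -0.35, and none was called with all libraries in the fit. BLM, the helicase of Bloom syndrome that dissolves joined DNA strands, had 1102 and 1050 normalised counts with decitabine, against 1448 and 1452 with DMSO. Its groups were well apart relative to their spread (log2 fold change -0.43, 95% interval -0.84 to -0.02, limma adjusted p = 0.148). At 6 h BLM had 1019 and 1259 with decitabine against 1476 and 1206 with DMSO, and these groups overlapped. At 72 h BLM had 1438 and 1729 with decitabine, and both decitabine values lay above the 1390 of the DMSO library. WRN, the helicase of Werner syndrome, had 447 and 674 with decitabine against 936 and 1019 with DMSO. The decitabine libraries were both lower but unlike one another (log2 fold change -0.83, 95% interval -1.82 to 0.16, limma adjusted p = 0.242). At 6 h WRN had 1005 and 1004 with decitabine against 910 and 940 with DMSO, with the decitabine libraries above the DMSO ones. At 72 h WRN had 594 and 1767 with decitabine, and the decitabine values lay on either side of the 842 of the DMSO library. RAD50, a structural subunit of the complex that tethers broken ends, had 780 and 823 with decitabine against 1048 and 1120 with DMSO (log2 fold change -0.43, limma adjusted p = 0.368). These 3 genes were called lower with the 72 h libraries left out, and RAD50 is given in full for that reason. Its 95% interval at 120 h was -1.10 to 0.23 on the log2 scale. At 6 h RAD50 had 1034 and 1234 with decitabine against 1297 and 1187 with DMSO, and these groups overlapped. At 72 h RAD50 had 874 and 1771 with decitabine, and the decitabine values lay on either side of the 1034 of the DMSO library. RAD50 overlaps another annotated gene on the same strand, and RBBP8 has a pseudogene. RBBP8, which encodes CtIP, the factor that starts the cutting back of ends, had 3250 and 3039 with decitabine against 3281 and 3199 with DMSO. These values nearly coincided (log2 fold change -0.04, 95% interval -0.77 to 0.68, limma adjusted p = 0.944). At 6 h RBBP8 had 2295 and 3147 with decitabine against 3889 and 3249 with DMSO, with the decitabine libraries below the DMSO ones. At 72 h RBBP8 had 3618 and 7571 with decitabine, and both decitabine values lay above the 2397 of the DMSO library. NBN, the partner of RAD50, and EXO1, an exonuclease, had log2 fold changes of -0.11 and -0.28.

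The genes of the BRCA proteins had log2 fold changes of both signs at 120 h. PALB2, which joins BRCA1 to BRCA2, had 474 and 381 normalised counts with decitabine at 120 h, against 675 and 653 with DMSO. All decitabine values were lower (log2 fold change -0.64, 95% interval -1.11 to -0.18, limma adjusted p = 0.0686), and PALB2 was called lower with the 72 h libraries left out. At 6 h PALB2 had 516 and 568 with decitabine against 693 and 559 with DMSO, and these groups overlapped. At 72 h PALB2 had 478 and 630 with decitabine, and the decitabine values lay on either side of the 621 of the DMSO library. BRCA2, a breast cancer susceptibility gene, had 2099 and 3550 with decitabine against 1898 and 3007 with DMSO. Its replicates differed more from each other than its groups did, at 6 h as well. The interval for BRCA2 at 120 h ran from -1.17 to 1.55 on the log2 scale (log2 fold change 0.19, limma adjusted p = 0.868). At 6 h BRCA2 had 3678 and 1692 with decitabine against 6381 and 2180 with DMSO, and these groups overlapped. At 72 h BRCA2 had 3144 and 6318 with decitabine, and the decitabine values lay on either side of the 3803 of the DMSO library. BARD1, the partner of BRCA1 in its ubiquitin ligase, had a log2 fold change of 0.45, and BRCA1 one of -0.08.

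Among the 9 genes of recombination paralogs and strand exchange, 7 had negative log2 fold changes at 120 h, with a median of -0.34, and again none was called with all libraries in the fit. RAD51C, a paralog shared by both paralog complexes, had 277 and 311 normalised counts with decitabine at 120 h, against 492 and 544 with DMSO. The groups were far apart relative to their spread (log2 fold change -0.82, 95% interval -1.41 to -0.22, limma adjusted p = 0.0688). At 6 h RAD51C had 633 and 784 with decitabine against 634 and 728 with DMSO, and these groups overlapped. At 72 h RAD51C had 401 and 691 with decitabine, and the decitabine values lay on either side of the 578 of the DMSO library. RAD52, which anneals single strands, had 198 and 234 with decitabine against 405 and 325 with DMSO (log2 fold change -0.75, 95% interval -1.28 to -0.22, limma adjusted p = 0.0612). At 6 h RAD52 had 299 and 360 with decitabine against 301 and 263 with DMSO, and these groups overlapped. At 72 h RAD52 had 201 and 281 with decitabine, and both decitabine values lay below the 424 of the DMSO library. XRCC2, a paralog that works with RAD51D, had 744 and 762 with decitabine against 1214 and 1104 with DMSO. Its pairs were tight and separate (log2 fold change -0.62, 95% interval -1.14 to -0.10, limma adjusted p = 0.106). At 6 h XRCC2 had 1134 and 1156 with decitabine against 1170 and 1232 with DMSO, with the decitabine libraries below the DMSO ones. At 72 h XRCC2 had 920 and 1540 with decitabine, and the decitabine values lay on either side of the 1139 of the DMSO library. Each of RAD51C, RAD52 and XRCC2 was called lower with the 72 h libraries left out. RAD51D itself had 254 and 803 with decitabine against 440 and 310 with DMSO at 120 h, so the decitabine libraries enclosed the DMSO ones (log2 fold change 0.29, 95% interval -0.86 to 1.44, limma adjusted p = 0.75). At 6 h RAD51D had 527 and 348 with decitabine against 424 and 452 with DMSO, and these groups overlapped. At 72 h RAD51D had 365 and 217 with decitabine, and the decitabine values lay on either side of the 316 of the DMSO library. RAD51D lies within a readthrough gene, RAD51L3-RFFL, that could share its reads. RAD51B, which was chosen after its values were seen, is the paralog with the lowest level per kilobase. It had 45.4 and 52.7 normalised counts with decitabine at 120 h against 27.0 and 38.8 with DMSO, and was not called (log2 fold change 0.58, 95% interval -0.24 to 1.40, limma adjusted p = 0.326). XRCC3, RAD51AP1, RAD54L and RAD54B, which act in strand exchange, had log2 fold changes of -0.27 to -0.35. RAD54B overlaps FSBP, RAD52 overlaps an antisense gene, and RAD52 and RAD51AP1 have 1 pseudogene each, so reads may be shared there too.

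Of the 8 Fanconi core genes, FANCM had the most negative log2 fold change at 120 h and 0 were called with all libraries in the fit. FANCM, the DNA translocase that anchors the complex at forks, had 692 and 621 normalised counts with decitabine at 120 h, against 1191 and 1341 with DMSO. Its groups did not overlap, and no other of the 42 genes had as negative a log2 fold change (-0.95, 95% interval -1.58 to -0.31, limma adjusted p = 0.0541). At 6 h FANCM had 894 and 896 with decitabine against 638 and 1101 with DMSO, and these groups overlapped. At 72 h FANCM had 805 and 1208 with decitabine, and both decitabine values lay above the 761 of the DMSO library. FANCM in DMSO cells at 120 h was higher than in DMSO cells at 6 h by a log2 difference of 0.59, which was not called (limma adjusted p = 0.937). The other 7 core genes had log2 fold changes of -0.30 for FANCE to 0.13 for FANCC, and the median of all 8 was -0.03. FANCB, encoded on the X chromosome and a partner of the ubiquitin ligase subunit FANCL, had 312 and 328 with decitabine against 313 and 338 with DMSO. These overlapped almost wholly (log2 fold change -0.02, 95% interval -0.43 to 0.39, limma adjusted p = 0.946). At 6 h FANCB had 343 and 353 with decitabine against 345 and 335 with DMSO, and these groups overlapped. At 72 h FANCB had 417 and 319 with decitabine, and the decitabine values lay on either side of the 321 of the DMSO library.

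No gene of the FANCD2-FANCI step or downstream of it was called at 120 h in any setting. BRIP1, the helicase that binds BRCA1, had 869 and 837 normalised counts with decitabine, against 679 and 697 with DMSO. All its decitabine values were higher (log2 fold change 0.31, 95% interval -0.02 to 0.63, limma adjusted p = 0.186). At 6 h BRIP1 had 788 and 710 with decitabine against 834 and 805 with DMSO, with the decitabine libraries below the DMSO ones. At 72 h BRIP1 had 1155 and 1218 with decitabine, and both decitabine values lay above the 854 of the DMSO library. EME1, the partner of the nuclease MUS81, had 314 and 333 with decitabine against 330 and 268 with DMSO. Its groups overlapped (log2 fold change 0.12, 95% interval -0.58 to 0.82, limma adjusted p = 0.836). At 6 h EME1 had 399 and 367 with decitabine against 487 and 410 with DMSO, with the decitabine libraries below the DMSO ones. At 72 h EME1 had 345 and 705 with decitabine, and both decitabine values lay above the 300 of the DMSO library. FANCD2 had a log2 fold change of 0.13 with an interval of -0.19 to 0.45, and FANCI, its partner, one of -0.26 with an interval of -0.63 to 0.10. The nuclease genes MUS81 and FAN1 and the scaffold SLX4 had log2 fold changes of -0.34, -0.17 and -0.13. FANCD2 has an annotated pseudogene that could take some of its reads.

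Both mismatch repair genes stood lower at 120 h, and both were called with the 72 h libraries left out but not with all in the fit. MSH6, which recognises mismatched bases, had 2618 and 2772 normalised counts with decitabine, against 4206 and 4123 with DMSO. The pairs were tight and far apart, yet the interval was wide (log2 fold change -0.63, 95% interval -1.73 to 0.47, limma adjusted p = 0.434). That width came with the decitabine 72 h pair, in which MSH6 differed most of the 42 genes, and without the 72 h libraries its adjusted p was 0.00249. At 6 h MSH6 had 3793 and 4401 with decitabine against 4176 and 4048 with DMSO, and these groups overlapped. At 72 h MSH6 had 3507 and 12922 with decitabine, and the decitabine values lay on either side of the 3796 of the DMSO library. PMS2, which cuts the strand to be replaced, had 318 and 282 with decitabine against 402 and 425 with DMSO (log2 fold change -0.46, 95% interval -0.89 to -0.04, limma adjusted p = 0.132). At 6 h PMS2 had 468 and 457 with decitabine against 420 and 528 with DMSO, and these groups overlapped. At 72 h PMS2 had 275 and 330 with decitabine, and both decitabine values lay below the 422 of the DMSO library. PMS2 has 10 annotated pseudogenes, so its counts are uncertain.

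The promoters of MSH6, PMS2 and XRCC2 are shown because each holds a word bound by E2F factors, which drive many genes of S phase, and each gene was called lower without the 72 h libraries. The words searched were TTTCCCGC, TTTCGCGC, TTTGCCGC and TTTGGCGC on both strands, in RefSeq windows of GRCh38.p14 from 250 bases before to 50 after each start. The windows are chr2:47782895-47783194 on the plus strand for MSH6, chr7:6009057-6009356 on the minus strand for PMS2 and chr7:152676092-152676391 on the minus strand for XRCC2. The word is in capitals.
MSH6: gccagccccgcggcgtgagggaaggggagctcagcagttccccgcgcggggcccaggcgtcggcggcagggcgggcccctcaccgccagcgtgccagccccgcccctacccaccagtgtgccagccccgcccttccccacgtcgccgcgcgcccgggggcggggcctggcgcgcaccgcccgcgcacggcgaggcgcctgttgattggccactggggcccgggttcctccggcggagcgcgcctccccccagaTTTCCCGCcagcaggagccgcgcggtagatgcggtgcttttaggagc
PMS2: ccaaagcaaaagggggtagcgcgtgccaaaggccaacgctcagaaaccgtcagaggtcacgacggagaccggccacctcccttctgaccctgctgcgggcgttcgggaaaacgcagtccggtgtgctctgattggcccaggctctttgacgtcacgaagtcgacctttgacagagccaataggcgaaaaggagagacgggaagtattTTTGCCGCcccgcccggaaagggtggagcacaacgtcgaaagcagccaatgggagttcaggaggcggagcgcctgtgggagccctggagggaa
XRCC2: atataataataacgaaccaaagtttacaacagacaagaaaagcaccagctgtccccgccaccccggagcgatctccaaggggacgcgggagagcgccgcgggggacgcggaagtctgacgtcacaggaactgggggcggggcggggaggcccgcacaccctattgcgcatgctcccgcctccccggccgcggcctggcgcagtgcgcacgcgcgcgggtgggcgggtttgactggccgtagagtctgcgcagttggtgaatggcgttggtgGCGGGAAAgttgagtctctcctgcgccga
Of the 42 genes, 38 had a window, and 8 of these (21.1%) held an E2F word, against 3.33% of 27305 promoters. Each E2F word contains a CpG, and the windows of the repair genes held a median of 27 CpG, against 14 over all promoters. The part of base composition in the share with a word was not tested. Among those called lower without the 72 h libraries, 3 of 11 held one, and among the others 5 of 27 did, namely EXO1, FANCA, FANCC, FANCD2 and TOPBP1. FANCA, FANCC and FANCD2, with a word, had positive log2 fold changes of 0.11, 0.13 and 0.13 at 120 h. EXO1 and TOPBP1, also with a word, had negative ones of -0.28 and -0.11, and those of MSH6, PMS2 and XRCC2 were negative too. ATR, FANCM, RAD51C and CHEK1 had none of the words in their windows. The cell cycle homology region TTTGAA was in 3 of 38 windows (7.89%), against 15.4% of all promoters, and the MYC E-box CACGTG in 3 of 38 (7.89%), against 7.43%. A match describes the letters of the window and does not show that a factor binds there.

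At 6 h no repair gene was called. The background was 0% of all genes lower and 0% higher. The median log2 fold change was -0.05, against -0.01 for all genes, and the values ran from -0.58 for BRCA2 to 0.63 for MUS81. Of the 42, 2 (4.76%) had an unadjusted p under 0.05, against 3.35% of all genes. Both were chosen after their values were seen. FANCI had 1803 and 1553 normalised counts with decitabine against 2463 and 2219 with DMSO (log2 fold change -0.48, 95% interval -0.84 to -0.12, limma adjusted p = 1). MUS81 had 1245 and 847 with decitabine against 559 and 784 with DMSO (log2 fold change 0.63, 95% interval 0.07 to 1.19, limma adjusted p = 1). Groups did not overlap for either gene, but the replicates of MUS81 spread widely. Both decitabine libraries lay below both DMSO libraries for 12 genes (28.6%), against 20.8% of all genes, and above them for 4 (9.52%), against 18.2%. No alternative setting called any of the 42 genes at 6 h.

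At 72 h the result rested on which decitabine library was used. With both, 0 of 42 were called in either direction, against 0.310% of all genes lower and 1.88% higher. In limma 7 of the 42 (16.7%) had an unadjusted p under 0.05, near the 18.1% of all genes, and the median log2 fold change was 0.16, against 0.09 for all genes. Of the 42 genes, 33 were higher in decitabine replicate 2 than in replicate 1, against 51.1% of all genes. Without replicate 1, 15 of 42 (35.7%) were called higher, against 16.8% of all genes. Without replicate 2, 0 were called in either direction, against 2.87% of all genes higher and 1.68% lower. Each of these sets 1 decitabine library against the 1 DMSO library, with both assumed to vary like the other groups. Such a difference cannot be told apart from 1 library standing apart.

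The genes that parted the decitabine 72 h libraries were named after their values were seen. MSH6 was 3.40-fold of the DMSO library in replicate 2 and 0.924-fold in replicate 1. WRN was 2.10-fold in replicate 2 and 0.706-fold in replicate 1. CHEK2 was 2.28-fold and 0.965-fold in the same order. FANCC went the other way, 0.583-fold in replicate 2 and 1.53-fold in replicate 1, and so did RAD54L, at 0.586-fold and 1.19-fold. RAD51B was high in both, at 67.9 normalised counts in replicate 2 and 52.1 in replicate 1, against 19.6 in the DMSO library (log2 fold change 1.55, 95% interval 0.55 to 2.56, limma adjusted p = 0.118). RBBP8 had 7571 in replicate 2 and 3618 in replicate 1, against 2397 with DMSO (log2 fold change 1.13, 95% interval 0.24 to 2.02, limma adjusted p = 0.183). RAD52 was low in both, with 281 in replicate 2 and 201 in replicate 1, against 424 with DMSO (log2 fold change -0.83, 95% interval -1.48 to -0.19, limma adjusted p = 0.174).

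The difference between those libraries moved with the GC content of the genes. Among the 21 repair genes of lower GC content, 36.3 to 42.9%, the median log2 difference of replicate 2 minus replicate 1 was 0.70, and 19 were higher in replicate 2. Among the 21 of higher GC content the median was 0.11, and 14 were higher in replicate 2. Over the 42 genes, Spearman's correlation of the difference with GC content was -0.454, and over 15879 genes -0.305. These are correlations across genes within a pair of libraries, and genes are not independent replicates. With a correction for GC content in each library, chosen after the data were seen, the median of the repair genes minus that of all genes at 72 h was -0.03, against 0.07 without it. At 120 h the same difference was -0.28 with the correction and -0.29 without. The transcript FP671120.7 took 5.25% of all counts in decitabine 72 h replicate 1 and 0.106% in replicate 2, against 0.0943% in the DMSO 72 h library. Its share was also high at 120 h in both groups, at 7.31% and 3.89% with decitabine and 8.08% and 10.9% with DMSO. At 6 h it was 0.0424% and 0.186% with decitabine and 0.794% and 0.493% with DMSO. The part of GC content in the 72 h values was not tested further, and that of this RNA in the values at 72 h or between times was not tested.

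**Figure D3:**
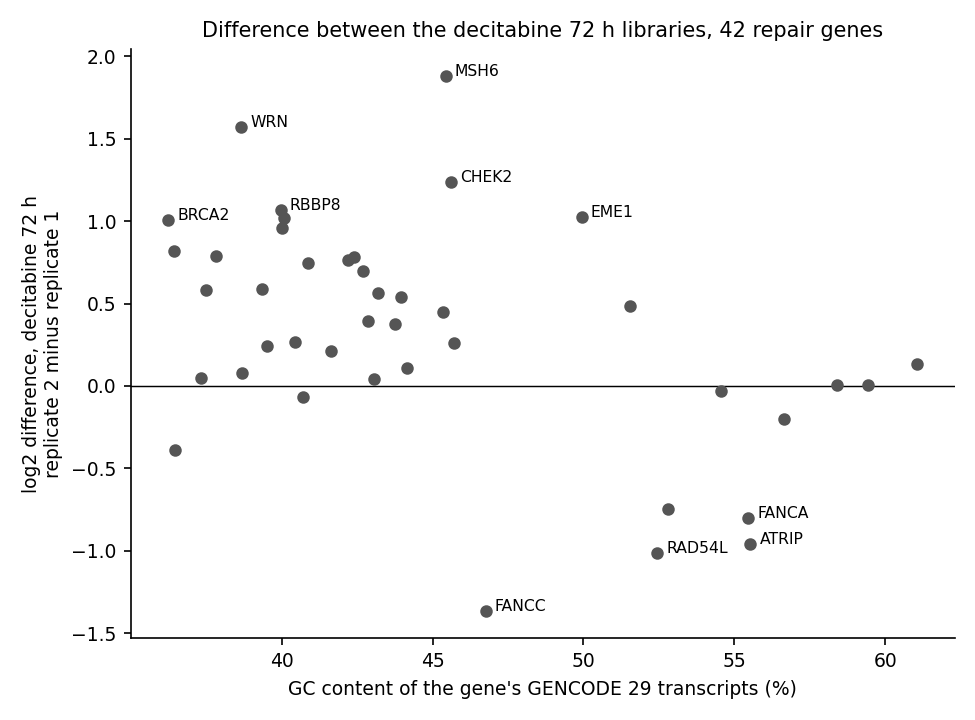
Log2 difference between the decitabine 72 h libraries, replicate 2 minus replicate 1, against the GC content of each gene's annotated transcripts in percent, with 1 point for each of the 42 repair genes. Most genes under 46% GC lie above 0, with MSH6 at 1.88, and several of 52 to 56% lie below, with FANCC, of 46.8%, lowest at -1.37.

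Between times, 0 of 42 were called different in their decitabine effect. For 120 h minus 6 h, 1.63% of all genes were called lower and 4.27% higher, and the repair genes had a median difference of log2 fold changes of -0.15, against 0.08 for all genes. In limma 6 of the 42 (14.3%) had an unadjusted p under 0.05, all lower, against 21.5% of all genes in either direction. Of these, FANCM had a difference of -1.04 (95% interval -1.94 to -0.14, limma adjusted p = 0.172) and CHEK1 one of -0.94 (95% interval -1.81 to -0.08, limma adjusted p = 0.193). With the 72 h libraries left out, 6 of 42 (14.3%) were called lower, namely CHEK1, MSH6, RAD51C, RAD52, WRN and XRCC2, against 9.03% of all genes. BARD1 alone (2.38%) was called higher, against 10.2% of all genes. For 120 h minus 72 h, 0% of all genes were called in either direction, and 4 of the 42 (9.52%) had an unadjusted p under 0.05, against 6.33% of all genes. Between DMSO cells at 120 h and at 6 h, again 0 of 42 and 0% of all genes were called, and 2 of the 42 (4.76%), FANCI and NBN, had an unadjusted p under 0.05, against 5.36% of all genes. FANCI had 1373 and 1638 normalised counts in DMSO cells at 120 h against 2463 and 2219 at 6 h, a log2 difference of -0.64 (SE 0.16, limma adjusted p = 0.74). The comparisons between times share libraries with those at each time, so they are not independent of them.

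**Figure D4:**
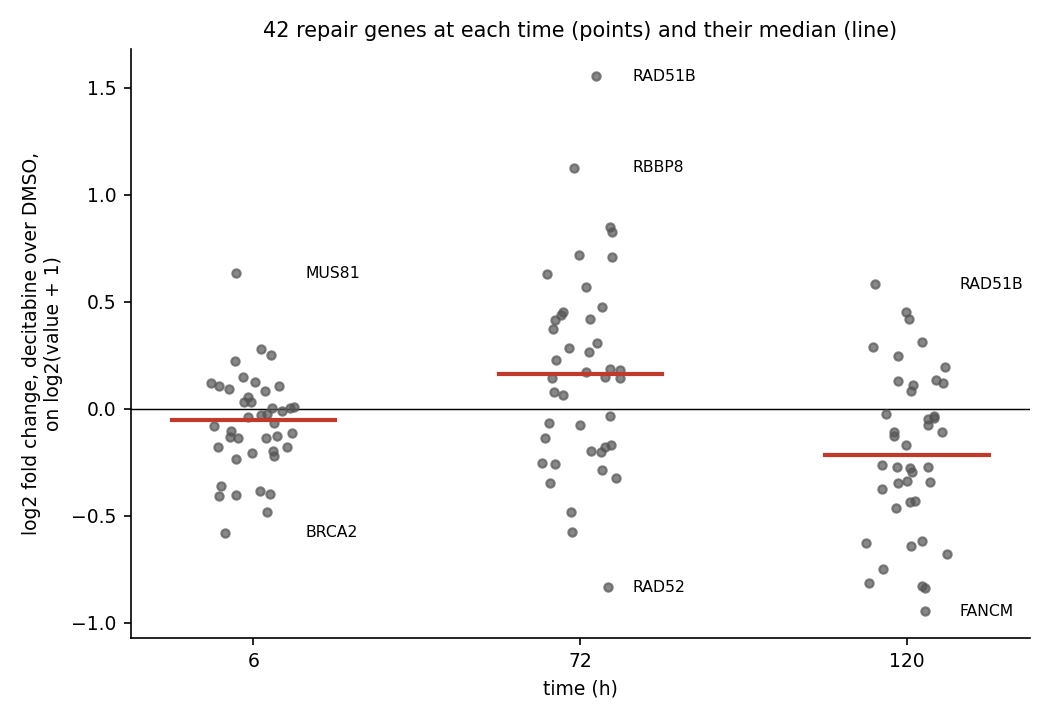
Log2 fold change of decitabine over DMSO for the 42 repair genes at 6, 72 and 120 h (points) with their median (red line). The median is -0.05 at 6 h, 0.16 at 72 h and -0.22 at 120 h, and the spread of the points is widest at 72 h.

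Genes that act beside these were taken as lists, which were chosen with results known. At 120 h 6.00% of all genes were called lower and 9.91% higher. Of 17 checkpoint partners, 2 were called lower. CDC25A, the phosphatase that CHEK1 restrains, had 577 and 516 normalised counts with decitabine against 813 and 785 with DMSO (log2 fold change -0.55, limma adjusted p = 0.0405). MDC1, which binds marked chromatin at breaks, had 711 and 653 with decitabine against 1000.5 and 947 with DMSO (log2 fold change -0.51, limma adjusted p = 0.0483). Of 21 recombination partners, 1 was called lower, BABAM1, a subunit of a BRCA1 complex (log2 fold change -0.89, limma adjusted p = 0.0286). Of 14 Fanconi partners, 0 were called by limma and 0 had an unadjusted p under 0.05, although 10 were negative and their median log2 fold change was -0.34.

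Among mismatch repair partners, PMS1, a relative of PMS2, had 452 and 421 normalised counts with decitabine against 788 and 769 with DMSO and was called lower (log2 fold change -0.83, limma adjusted p = 0.0107). Its groups did not overlap. Of 8 genes of non-homologous end joining, PRKDC, its large kinase, was called lower (log2 fold change -0.66, limma adjusted p = 0.0287) and LIG4, its ligase, higher. LIG4 had 655 and 673 with decitabine against 362 and 358 with DMSO (log2 fold change 0.88, limma adjusted p = 0.00945), and its groups did not overlap. Without the 72 h libraries the calls were 4 lower and 1 higher among checkpoint partners, 2 lower among recombination partners, 3 lower among Fanconi partners, and 2 lower and 1 higher in end joining, where 15.3% of all genes were called lower and 16.2% higher. The partner genes named here were called in 12 of 24 alternatives for MDC1 to 20 of 24 for PMS1 and LIG4.

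Many of the repair genes are known to vary with the cell cycle, so a list of 18 genes of replication and mitosis was set beside them. Their median log2 fold change at 120 h was -0.24, close to the -0.22 of the repair genes, with MCM2 called lower (-0.80, limma adjusted p = 0.0294) and E2F2 called higher (1.23, limma adjusted p = 0.0137). At 120 h 11 of the 18 had negative log2 fold changes, against 45.8% of all genes. Among those with positive ones, CDK1 had 0.22 and CCNE2 had 0.15. MKI67 had 9373 and 7749 normalised counts with decitabine, against 8627 and 7524 with DMSO. Without the 72 h libraries 7 of the 18 were called lower, namely PCNA, CCNA2 and 5 MCM genes, against 15.3% of all genes. E2F2 was called higher in that fit, against 16.2% of all genes. At 72 h the medians were 0.24 for the cell cycle list and 0.16 for the repair genes. Over the libraries, the median log2 deviation of the repair genes from their means was -0.25 and -0.17 in the decitabine 120 h libraries, against -0.02 and 0.03 in DMSO at 120 h. For the cell cycle list these were -0.23 and -0.28 with decitabine, against -0.04 and 0.10 with DMSO. The highest library for both lists was decitabine 72 h replicate 2, at 0.32 for the repair genes and 0.29 for the cell cycle list. Whether the share of cycling cells had a part in the repair genes' values was not tested.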

How the data were processed

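The deposited values are a never-negative signal: gene counts normalised by the authors with DESeq2 size factors, per the file name in the labels and the submitters' processing notes. The authors' tools in those notes are STAR, featureCounts, Salmon 1.2.1, limma and DESeq2, and the build is hg38; what each was used for is not stated there. Libraries were stranded and read as single-end 50 bp reads, per the labels' protocols, but whether counting used strand is not stated. Whole reads could not be recovered, so no count test was used, as the design allows. Only 59.3 to 65.5% of low values came out whole within 0.01. Library names were taken to begin over the symbol field. Replicates of a group then differed by a mean median absolute log2 difference of 0.299, against 0.439 between groups.

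Values were taken as log2(value + 1), which understates changes of low genes. Genes reaching 10 in 2 or more libraries were fitted with limma 3.58.1 (1 mean for each of 6 groups, trended eBayes, 5 residual degrees of freedom, 8.42 with those borrowed) in R 4.3.3. Two-sided p-values were Benjamini-Hochberg adjusted over 16152 genes. The fit was also run on simulated data whose planted changes were larger than those of the repair genes at 120 h. It therefore does not test calls of their size. Normalised counts in the text are rounded, and n = 2 for each group but DMSO at 72 h. Gene positions, exon length and GC content came from GENCODE 29 and promoters from RefSeq.

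The members and lists were chosen with earlier results of these data known. Genes named at 120 h are the 12 of smallest adjusted p and, in each role, the gene of largest adjusted p. Called genes of the partner lists are also named, except where a result is not reported here. Others are said to be chosen after their values were seen, or are given by log2 fold change alone. Alternatives changed the pseudocount, filter, scaling, limma settings, control libraries and replicates used.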

Additional observations from a re-analysis of the deposited data

How the results depend on the processing

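At 120 h ATR was called in 19 of 24 alternatives, with log2 fold changes of -0.82 to -0.65 and adjusted p of 0.00224 to 0.144. The call was lost with limma without a trend, where 0 of the 42 were called lower, against 4.59% of all genes. It was also lost when any of the 120 h libraries was left out, which leaves 1 library in a group. The cause was not tested. Of the 42 genes, 28 were called in no alternative at 120 h, and 27 kept their sign in all 24. Calls over all genes moved with the setting too. The count called lower at 120 h was 7 (16.7%, against 9.07% of all genes) with quantile normalisation, 6 (14.3%, against 7.53%) with median-ratio scaling and 11 (26.2%, against 14.4%) with sample weights. It was 11 (26.2%, against 13.5%) with only the libraries compared, 7 (16.7%, against 11.6%) with all DMSO libraries as control, 7 (16.7%, against 8.82%) with the GC correction and 12 (28.6%, against 15.3%) without the 72 h libraries. Leaving out 1 library of 6 or 72 h at a time gave 1 to 12 lower at 120 h, where 4.11% to 15% of all genes were called lower. The same fits gave 0 to 1 higher, where 8.47% to 16% of all genes were called higher. Higher calls were 1 with sample weights, 1 with only the libraries compared and 1 without the 72 h libraries, where 16.8%, 16.1% and 16.2% of all genes were called higher. At 72 h all DMSO libraries as control gave 2 lower (4.76%, against 7.35% of all genes) and 4 higher (9.52%, against 10.7%). The fits at 72 h with 1 decitabine library left out are described above. For the effect at 120 h minus 6 h, sample weights gave 3 lower (7.14%, against 8.05% of all genes). Only the libraries compared gave 6 lower (14.3%, against 9.03%) and 1 higher (2.38%, against 10.2%), as did the fit without the 72 h libraries. Without decitabine 72 h replicate 1 there were 6 lower and 1 higher, against 8.73% and 10% of all genes. Without replicate 2 there were again 6 and 1, against 8.84% and 10.1%. Without the DMSO 72 h library there were 0 and 0, against 1.63% and 4.32%. For 120 h minus 72 h, leaving out 1 library gave 0 to 13 lower, the 13 without decitabine 72 h replicate 1, where 10.4% of all genes were called lower. The GC correction and the fit without the 72 h libraries were chosen after seeing the data.

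Quantile normalisation moved the median of all genes at 120 h by -0.17 and at 72 h by -0.13. Relative to all genes the repair genes then stood at -0.14 at 120 h, against -0.29 as deposited. Of all genes called at 120 h, 50.8% were higher with quantile normalisation, 54.4% with median-ratio scaling and 52.5% with the GC correction, against 62.3% as deposited. At 72 h these shares were 74.5%, 78.5% and 74.8%, against 85.8%. Of all genes called for 120 h minus 6 h they were 58.4%, 63.5% and 59.9%, against 72.3%.

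With the replicate block 4 of the repair genes (9.52%, against 5.68% of all genes) were called lower at 120 h. Replicate numbers were not used to pair the samples in the main fit. Deviations of same-numbered libraries correlated at -0.08 to 0.12 over 10 pairs of groups, with 2 over 0.1. Such correlations across genes cannot settle whether the replicates were paired. Leaving out the 1 DMSO library at 72 h leaves no comparison there. Precision is limited by 2 libraries a group: the 95% interval reached a median of 0.57 on the log2 scale to either side at 120 h.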
